A study of Mus musculus with 48 samples.

Results

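The villi of the jejunum and of the ileum were compared in sham-operated mice, whose bowel had not been rerouted. The comparison rested on 9 libraries, 4 from the jejunum and 5 from the ileum, of the 48 libraries in the series, and they were chosen by the tissue and surgery that the labels gave. The series measured messenger RNA by sequencing in 6 tissues, 9 days after Roux-en-Y gastric bypass (RYGB) or sham surgery. RYGB connects a stapled-off part of the stomach with the jejunum, and food then skips the duodenum. All mice of both groups were male C57Bl6 with diet-induced obesity from a high fat diet, were given an elemental liquid diet after surgery, and were killed at 10 in the morning after an overnight fast. The labels added a return to the high fat diet after 9 days, and they did not say whether the jejunum and the ileum with the same number came from the same mouse. The villi were scraped off the bowel after 5 minutes in ice-cold EDTA, so each library held villus epithelium with the blood and lymphoid cells inside it, and the labels did not say how far along the bowel a sample was taken.

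The small intestine absorbs different nutrients along its length. The proximal part handles iron, fat, sugar and many ingested chemicals, peptides and amino acids are absorbed along the jejunum and ileum, and the distal ileum takes back bile acids and vitamin B12. Transcription factors such as PDX1 and GATA4 mark these segments in the epithelium.

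The values were CPM, in which the reads of each gene are scaled to the total of the library, and levels were compared between libraries and not between genes. In the jejunum 11021 genes were listed and in the ileum 10777, and 10585 were in both. Of those, 10561 reached a mean of 1 CPM over the 9 sham libraries and were tested with limma on log2(CPM + 1). A difference is given on that scale as ileum minus jejunum, with its standard error (SE), and it understates the change of a gene with a low level. Genes with a change of at least 1.5-fold and an adjusted P value under 0.05 were counted as differentially expressed genes (DEGs). The jejunum libraries were sequenced in lane 1 and the ileum libraries in lanes 2 and 3, so the segment and the lane cannot be told apart in these 9 libraries. The sham duodenum libraries, given for comparison below, were in lane 2, like ileum 1 to 3.

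The segments lay on opposite sides of 0 in the first principal component, but some libraries of different segments lay close together. In the first principal component, which held 46.6% of the variance, jejunum 2 and jejunum 4 lay at one end with loadings of -0.54 and -0.48, and ileum 4 lay at the other with 0.49. Jejunum 1 and 3 had loadings of -0.15 and -0.11 and were close to ileum 5 with 0.04. Ileum 1 to 3 had loadings of 0.183, 0.195 and 0.368, so every jejunum loading was below 0 and every ileum loading above it. Jejunum 1 correlated best with an ileum library (r = 0.986 with ileum 1 across the tested genes, which are not independent). Its correlation with jejunum 3 was nearly the same, at 0.985. Pdx1, the duodenal transcription factor, was at 0.5, 7.4, 0.7 and 1.1 CPM in jejunum 1 to 4 and was not listed in the ileum table, against 14.5 to 160 CPM in the 4 sham duodenum libraries. Pdx1 was highest in jejunum 2 among these 4. Without jejunum 2 most of the calls named below were lost, and each paragraph says which. Fewer were lost without ileum 2 or ileum 3, where 26 and 21 of 54 named DEGs stayed called, against 13 without jejunum 2.

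The defining markers of the terminal ileum were low in the libraries labelled ileum. Slc10a2, the apical bile acid transporter, was at 0.2, 1.4, 1.4, 2.5 and 0.3 CPM in ileum 1 to 5, against 0.3, 1.1, 1.0 and 0.4 CPM in the jejunum, so the groups overlapped. Fabp6, the ileal bile acid binding protein, was listed only in the ileum table, at 0, 11.2, 2.5, 22.9 and 0 CPM, and Fgf15, the hormone that the ileum releases in response to bile acids, was likewise listed only there, at 7.1, 31.4, 24.5, 4.1 and 0.8 CPM. Fabp6 was at 0 in ileum 1 and ileum 5 and highest in ileum 4. Gata4, which is on in the proximal bowel and off in the terminal ileum, was at 137, 181, 126 and 122 CPM in the jejunum and at 151, 148, 123, 122 and 155 CPM in the ileum, a difference of -0.01 (SE 0.14, adjusted P = 0.979 by limma). These markers therefore did not mark the libraries as terminal ileum, and the libraries are called ileum here by their label.

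Sham ileum and sham jejunum differed at 723 genes, which is 6.85% of those tested. Of these, 465 were higher in the ileum (4.4% of the tested genes) and 258 were lower (2.44%). These shares are the background for the calls in each gene list below, and no list was tested against them. The median size of a DEG's difference was 0.8 on the log2 scale, and 33 DEGs differed by at least 4-fold, 19 of them higher and 14 lower. In 573 of the 723 DEGs no library of one segment overlapped with any of the other, and 1531 of all tested genes (14.5%) had groups that did not overlap. Without jejunum 2 the count fell to 58 DEGs, all of which were among the 723, with 48 higher and 10 lower. With the libraries scaled by their median ratio, 750 genes were DEGs, 360 higher and 390 lower, so the share that was higher moved from 64.3% to 48.0%.

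**Figure D1:**
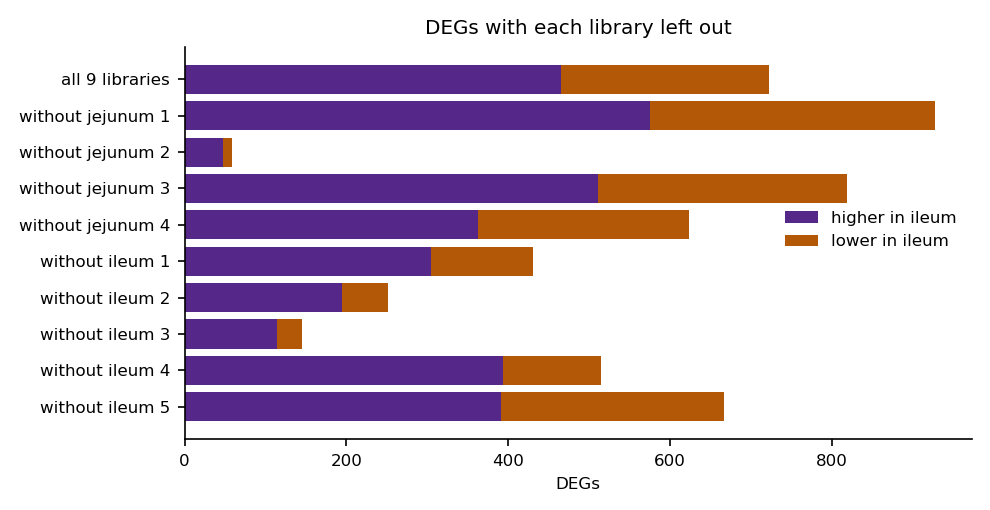
Number of DEGs between sham ileum and sham jejunum (horizontal axis) with all 9 libraries and with each library left out in turn, split into genes higher and lower in the ileum. The count ran from 58 without jejunum 2 to 927 without jejunum 1, and was 145 without ileum 3.

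The largest difference was that of Plb1, a brush border phospholipase B that splits dietary phospholipids and retinyl esters (chromosome 5, 32232708 to 32366520, GRCm38, plus strand). It was at 0.2, 0.6, 4.1 and 0.1 CPM in jejunum 1 to 4 and at 439, 1212, 1563, 4238 and 26.2 CPM in ileum 1 to 5. The difference was 8.43 (SE 1.15, adjusted P = 0.00855), it was 8.37 without jejunum 2, and Plb1 was not listed in the duodenum table. Fam151a (chromosome 4, 106733889 to 106748292, plus strand) rose from between 1.7 and 14.4 CPM in the jejunum to 132, 166, 224, 296 and 40.1 CPM in the ileum, a difference of 4.87 (SE 0.60, adjusted P = 0.00615). Ileum 5 was the lowest ileum library for both genes and still lay above every jejunum library.

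Among the other leading genes that rose were several of secretion and defence. Guca2a, which encodes the gut peptide guanylin, was at 38.4, 19.9, 44.4 and 32.1 CPM in the jejunum and at 219, 195, 183, 328 and 84.5 CPM in the ileum (difference 2.48, SE 0.34, adjusted P = 0.00855). Duox2, the epithelial enzyme that makes hydrogen peroxide at the cell surface, was at 68.2, 42.6, 25.7 and 23.8 CPM in the jejunum and at 273, 443, 265, 604 and 84.0 CPM in the ileum (2.89, SE 0.49, adjusted P = 0.0135). Both remained DEGs without jejunum 2.

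The kinase gene Map3k6 was higher by 3.03 (SE 0.37, adjusted P = 0.00615), with jejunum libraries between 2.4 and 11.4 CPM and ileum libraries between 31.9 and 80.5 CPM. Igf2, a fetal growth factor, was at 2.5, 1.4, 5.7 and 1.5 CPM in the jejunum and at 28.5, 38.8, 49.5, 12.9 and 6.6 CPM in the ileum. Clca3a1 and Clca3a2 of the chloride channel regulator family (2.67 and 2.76), which are so alike that they can share reads, Mgat4c of glycan synthesis (2.36), the potassium channel Kcnj13 (2.26), the protease Prss23 (2.26) and Xpnpep2 (2.21) completed the 12 largest rises among DEGs whose groups did not overlap, a condition of the choice. Of the 12, Plb1, Fam151a, Map3k6, Duox2 and Guca2a stayed DEGs without jejunum 2, and the other 7 had adjusted P values between 0.0513 and 0.0688 there.

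**Figure D2:**
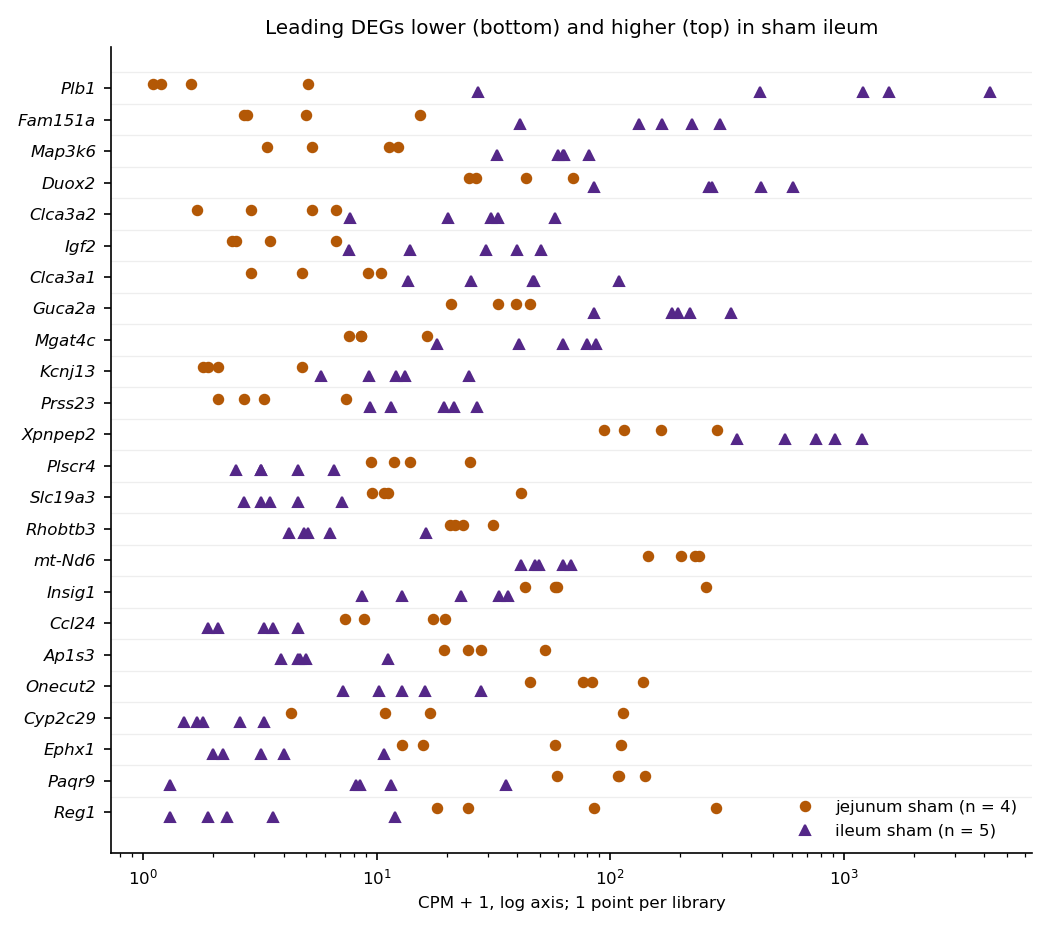
CPM + 1 on a log axis for the 12 DEGs with the largest rise and the 12 with the largest fall in the ileum, among those whose groups did not overlap; circles are the 4 jejunum libraries and triangles the 5 ileum libraries. For Plb1 the jejunum libraries lie at 0.1 to 4.1 CPM and the ileum libraries at 26.2 to 4238 CPM.

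Genes that fell in the ileum were led by Reg1, a secreted lectin of the regenerating family (chromosome 6, 78422711 to 78428667, plus strand). It was at 17.1, 282, 23.6 and 84.4 CPM in jejunum 1 to 4 and at 2.6, 1.3, 0.9, 0.3 and 11 CPM in ileum 1 to 5, a difference of -4.25 (SE 0.80, adjusted P = 0.0167). In the sham duodenum it was at 1345 to 7417 CPM. Reg1 was highest in jejunum 2, and without that library the difference was -3.48 and the adjusted P value 0.0513.

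Onecut2, a transcription factor of the foregut and proximal bowel, was at 75.3, 138, 82.4 and 44.5 CPM in the jejunum and at 11.9, 9.2, 15.2, 6.2 and 26.9 CPM in the ileum (-2.57, SE 0.38, adjusted P = 0.00998). The sham duodenum had 130 to 382 CPM, and the call held without jejunum 2 (-2.31, adjusted P = 0.0391). Ap1s3, a subunit of a clathrin adaptor, was at 18.5, 51.4, 23.7 and 27.1 CPM in the jejunum and at 4.0, 3.6, 2.9, 3.7 and 10.2 CPM in the ileum (-2.42, SE 0.33), and its call held too.

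The other falls included Paqr9, a membrane receptor gene (-3.60), the detoxifying enzymes Ephx1 and Cyp2c29 (-3.23 and -3.06), the chemokine Ccl24 that attracts eosinophils (-2.05), the sterol sensor partner Insig1 (-1.98), Rhobtb3 (-1.91), the thiamine transporter Slc19a3 (-1.90) and the scramblase family gene Plscr4 (-1.90). Of these, Cyp2c29, Ccl24 and Plscr4 stayed DEGs without jejunum 2, while Paqr9 (adjusted P = 0.0605), Ephx1 (0.0581), Insig1 (0.104), Rhobtb3 (0.0545) and Slc19a3 (0.0545) did not. Cyp2c29 lost its call, however, when ileum 1, 2, 3 or 4 was left out in turn (adjusted P = 0.0527 to 0.068 by limma). The smallest adjusted P value of all tested genes was that of mt-Nd6, the mitochondrial gene for a subunit of respiratory complex I that lies on the strand opposite to the other protein genes of that genome. It was at 200, 231, 144 and 240 CPM in the jejunum and at 46.8, 40.7, 48.6, 61.9 and 66.7 CPM in the ileum (-1.92, SE 0.18, adjusted P = 0.00177), and it stayed a DEG without jejunum 2. Whether counting used the strand is not given in the sources used here, so reads of mt-Nd6 and of RNA from the opposite strand cannot be told apart. For comparison mt-Co1, on the other strand, was at 15592 to 24305 CPM in the jejunum and 12577 to 20631 CPM in the ileum, which overlapped (-0.28, adjusted P = 0.484).

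Digestion of peptides and uptake of amino acids was the list with the most genes that rose. Of its 21 tested members, 11 were higher in the ileum and none was lower, and the median difference was 0.81 against 0.04 over all genes tested. Of all tested genes 4.4% were higher and 2.44% lower. Anpep, the brush border aminopeptidase N, was at 7241, 5325, 11746 and 6100 CPM in jejunum 1 to 4 and at 12246, 18451, 21187, 20784 and 12697 CPM in ileum 1 to 5 (1.20, SE 0.29, adjusted P = 0.0314). Every ileum library lay above every jejunum library, and in the sham duodenum Anpep was at 186 to 8811 CPM.

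Other enzymes that cut peptides at the brush border rose as well. Naaladl1, a peptidase, was at 1007, 451, 1095 and 815 CPM in the jejunum and at 2225, 2825, 2526, 3754 and 1719 CPM in the ileum (1.66, SE 0.28, adjusted P = 0.0135). Xpnpep2, which removes residues before proline, was at 165, 93.5, 287 and 114 CPM in the jejunum and at 558, 761, 920, 1195 and 350 CPM in the ileum. Mep1a, a subunit of meprin, was at 220, 142, 285 and 152 CPM in the jejunum and at 542, 700, 823, 1271 and 279 CPM in the ileum (1.74, SE 0.37, adjusted P = 0.0223). Mep1a overlapped in ileum 5 alone, which lay under jejunum 3. Enpep, aminopeptidase A, rose by 1.13.

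Of the transporters, Slc15a1, the peptide carrier PEPT1, was at 1061, 593, 1031 and 879 CPM in the jejunum and at 1538, 1750, 1808, 2525 and 1293 CPM in the ileum (1.00, SE 0.22, adjusted P = 0.0253). Slc1a1, the glutamate and aspartate transporter, was at 5.5, 3.7, 12.8 and 6.7 CPM in the jejunum and at 26.2, 41.7, 44.7, 72.6 and 12.7 CPM in the ileum (2.22, SE 0.43). The amino acid carriers Slc7a8, Slc43a2, Slc7a9 and Slc36a1 rose by 0.60 to 0.96. The members that did not pass included the neutral amino acid carrier Slc6a19 (0.81, adjusted P = 0.072) and Slc6a20a (-0.08, adjusted P = 0.85), the only one of the 21 that was not above 0. Without jejunum 2 20 of 21 members were higher by sign, but Naaladl1 alone was called, and the median was 0.66. With median-ratio scaling of all libraries 8 of the 21 were called, and with jejunum 1 and 3 alone 0 were. Tmprss15, the enteropeptidase that activates trypsin, was listed only in the jejunum table, at 9.9, 279, 18.1 and 31.3 CPM.

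**Figure D3:**
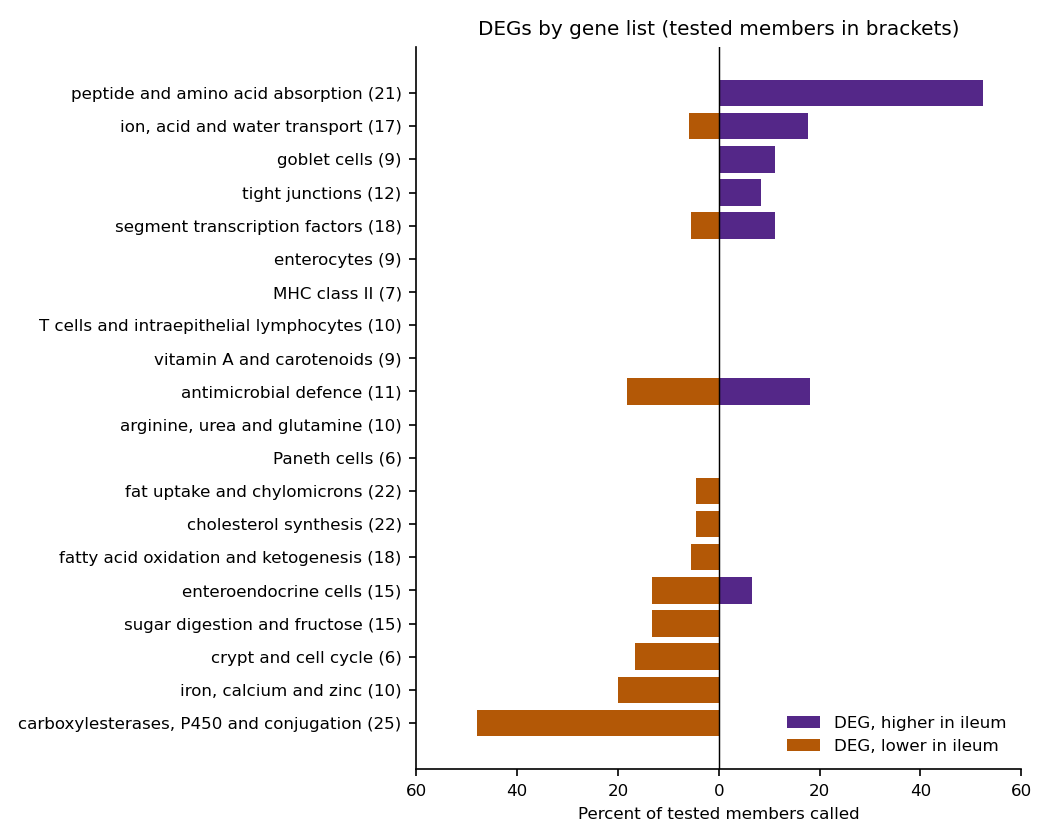
Percent of the tested members of each gene list called as DEGs, to the right for genes higher and to the left for genes lower in the ileum, with the number of tested members in brackets (lists with at least 6). Peptide and amino acid absorption has 11 of 21 members higher, and carboxylesterases, P450 and conjugation has 12 of 25 lower. Over all tested genes 4.4% were higher and 2.44% lower.

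The genes of drug and xenobiotic metabolism lay the other way. Of the 25 tested carboxylesterases, cytochrome P450 and conjugating enzymes, 12 were lower in the ileum and none was higher, with a median of -1.31. Over all tested genes 2.44% were lower and 4.4% higher, with a median of 0.04. Ephx1, an epoxide hydrolase, was at 11.9, 110, 14.8 and 57.0 CPM in jejunum 1 to 4 and at 1.2, 3.0, 2.2, 1.0 and 9.8 CPM in ileum 1 to 5 (-3.23, SE 0.65, adjusted P = 0.0194). The gene for glutathione transferase Gsta1 was at 7.0, 118, 10.9 and 31.4 CPM in the jejunum and at 4.0, 5.3, 2.8, 1.6 and 7.4 CPM in the ileum (-2.35, SE 0.66, adjusted P = 0.0447), and the groups overlapped.

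Cyp3a13, a P450 of the family that clears many drugs, fell from 2209, 2906, 1998 and 2731 CPM to 1328, 1576, 1091, 1448 and 1146 CPM, and Cyp3a25 and Cyp3a11 fell by 0.90 and 1.57 on the log2 scale. Cyp2c29, Cyp2c65, Cyp2c66, Cyp2c68, Ces1d, Ces1f and Gsta4 were the remaining calls, and members of these families are so alike that their reads can be split between copies. Jejunum 2 was the highest jejunum library for Ephx1, Gsta1 and Cyp3a13. Without it all 25 members were lower by sign, with a median of -0.85, and Cyp2c29 was the one DEG.

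Genes of fatty acid oxidation and ketone synthesis were mostly lower by sign with and without jejunum 2, while no call held without it. Of 18 tested members 17 were lower by sign, with a median of -0.6, but Acot1, a thioesterase of long-chain acyl-CoA, was the only call, at 1.7, 32.8, 2.0 and 13.6 CPM in the jejunum and 0.2, 0.5, 0.1, 0 and 2.2 CPM in the ileum. Cyp4a10, a fatty acid hydroxylase, was at 3.0, 183, 5.0 and 18.3 CPM in the jejunum and at 0.4 to 3.8 CPM in the ileum. Jejunum 2 and then jejunum 4 were the highest libraries for both genes. Without jejunum 2 the list had no DEG (adjusted P = 0.11 for Acot1), 16 of 18 members were lower by sign, and the median was -0.42. In the 22 tested genes of cholesterol synthesis the median was -0.16 with all libraries and 0.25 without jejunum 2. The only call with all libraries, Insig1, was lost without jejunum 2 (-1.41, adjusted P = 0.104). Insig1 also lost its call when jejunum 4 or ileum 1, 2, 3 or 4 was left out in turn (adjusted P = 0.0508 to 0.094 by limma).

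Genes of fat and sugar uptake gave few calls. Of 22 tested genes of fat uptake and chylomicrons, Fabp1 was the one DEG, beside 6.85% of all tested genes. By sign 15 were lower and 7 higher, with a median of -0.2. In 6 of the 22 the groups did not overlap, beside 14.5% of all tested genes. Without jejunum 2 there was no DEG, 17 were lower by sign and 5 higher, and the median was -0.29. With median-ratio scaling 3 were called lower and 0 higher. Fabp1, the liver-type fatty acid binding protein, was at 3609, 14000.0, 5990 and 9248 CPM in the jejunum and at 2284, 3029, 2636, 1190 and 3986 CPM in the ileum (-1.57, SE 0.41, adjusted P = 0.0373), with ileum 5 above jejunum 1. It was highest in jejunum 2, and without that library it was no DEG (-1.26, adjusted P = 0.112). Fabp1 also lost its call when jejunum 4 or ileum 1, 2, 3 or 4 was left out in turn (adjusted P = 0.0631 to 0.0772 by limma). Fabp2, the intestinal form, was at 3905 to 9518 CPM in the jejunum and at 5264 to 11515 CPM in the ileum and did not pass (0.03, adjusted P = 0.956).

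Apoa4, an apolipoprotein of chylomicrons and the gene with the highest CPM in both segments, was at 39146, 37520, 29793 and 57052 CPM in the jejunum and at 28079, 33939, 15179, 10666 and 26638 CPM in the ileum, and it did not pass either (-0.92, adjusted P = 0.132). Apoa1, Apob and the selenium carrier Selenop, also among the most abundant, had differences of -0.17, -0.36 and -0.37 with adjusted P values of 0.734, 0.37 and 0.448. Of 15 genes of sugar digestion and fructose use, 2 fell, and the other 13 did not pass. Fbp1, of glucose synthesis, was at 131, 204, 116 and 166 CPM in the jejunum and at 55.8, 41.3, 47, 17 and 98.5 CPM in the ileum (-1.72, SE 0.38, adjusted P = 0.0253), and the groups did not overlap. Without jejunum 2 no gene of this list was called (Fbp1 -1.57, adjusted P = 0.0877).

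Both ferritin genes, which store iron, were called lower in the ileum, as were 2.44% of all tested genes. Fth1, the heavy chain of ferritin, was at 2270, 3936, 1524 and 4107 CPM in jejunum 1 to 4 and at 1209, 902, 683, 1151 and 1377 CPM in ileum 1 to 5 (-1.40, SE 0.30, adjusted P = 0.0234). In the sham duodenum, the main site of iron uptake, it was at 5560 to 13961 CPM. Ftl1, the light chain, fell by 0.70 on the log2 scale (adjusted P = 0.0281). The other 8 tested genes of the iron, calcium and zinc list did not pass, and without jejunum 2 neither ferritin gene did (adjusted P = 0.0798 for Fth1 and 0.0959 for Ftl1).

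**Figure D4:**
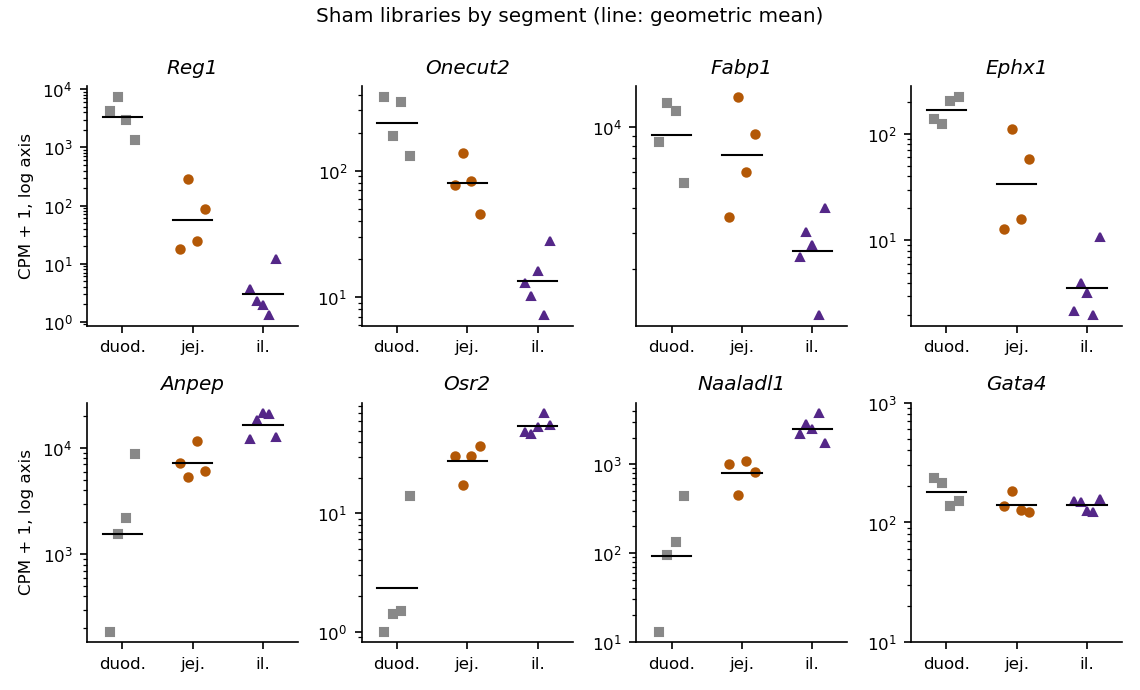
CPM + 1 on a log axis in each sham library of the duodenum (squares, 4), jejunum (circles, 4) and ileum (triangles, 5), with the geometric mean of CPM + 1 as a line. Reg1 runs from 1345 to 7417 CPM in the duodenum to between 0.3 and 11 CPM in the ileum, Anpep runs the other way, and Gata4 overlaps between jejunum and ileum.

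The transcription factors that pattern the bowel were measured in 18 genes. Of these 1 fell, 2 rose, and the other 15 were not DEGs, beside 6.85% of all tested genes that were. Onecut2 was the fall, and Osr2 was among the rises. Osr2 was at 29.3, 16.2, 29.5 and 36.4 CPM in the jejunum and at 47.9, 45.4, 52.7, 68.9 and 54.7 CPM in the ileum (0.97, SE 0.21, adjusted P = 0.0233), against 0 to 13.0 CPM in the sham duodenum. Osr2 did not pass without jejunum 2 (0.74, adjusted P = 0.0556), while the direction was kept.

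Maf, which controls genes of the mature villus, was higher in every ileum library (0.56, adjusted P = 0.0463) but did not reach the fold change required of a DEG. Gata5, Klf5, Isx and Prdm1 had differences of 0.52, 0.82, 0.40 and 0.56 with adjusted P values from 0.0542 to 0.143, and Gata6 one of -0.38 (adjusted P = 0.106). The factors Cdx1, Cdx2, Hnf4a, Hnf4g, Klf4, Creb3l3, Ppara and the bile acid receptor Nr1h4 had differences between -0.19 and 0.34 and adjusted P values of 0.323 and above.

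The bile acid and vitamin B12 genes gave 1 call, which rested on jejunum 2 among other libraries. The basolateral bile acid exporter subunits Slc51a and Slc51b had differences of 0.57 and 0.19 (adjusted P = 0.141 and 0.562), and for Slc51a ileum 4 stood highest, at 698 CPM against 247 to 368 CPM in the other ileum libraries and 223 to 264 CPM in the jejunum. Nr0b2, a repressor that the bile acid receptor switches on, was lower in the ileum, at 2.6, 10.1, 4.2 and 9.0 CPM in the jejunum and at 0.9, 2.0, 1.4, 0.4 and 3.6 CPM in the ileum (-1.46, SE 0.39, adjusted P = 0.0383), and it was no DEG without jejunum 2 (-1.22, adjusted P = 0.119). Cubn, which encodes the intrinsic factor receptor cubilin, was at 893, 342, 864 and 422 CPM in the jejunum and at 1029, 1273, 806, 1687 and 1232 CPM in the ileum and just missed the threshold (1.02, SE 0.31, adjusted P = 0.0564). Its partner Amn (0.63) and the B12 carrier Tcn2 (0.40) did not pass.

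The hormone genes of enteroendocrine cells were split. Pyy, a satiety hormone of the distal bowel, was at 1.7, 1.6, 1.4 and 2.3 CPM in the jejunum and at 5.8, 6.7, 8.6, 13.3 and 4.3 CPM in the ileum (1.59, SE 0.25, adjusted P = 0.0114), and it was still called without jejunum 2. Cck and Ghrl, hormones of the proximal bowel, fell by 1.82 and 0.95 on the log2 scale (adjusted P = 0.0263 and 0.0367), and neither was called without jejunum 2 (adjusted P = 0.0881 and 0.116). The other 12 tested members did not pass, and Chga, a general marker of these cells, had a difference of 0.15. Among all tested genes 6.85% were DEGs. Fewer cells of a type and less RNA per cell cannot be told apart in such libraries.

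Ion transport and barrier genes gave a few calls, beside 6.85% of all tested genes that were DEGs. Of 17 tested transport genes, Guca2a, the carbonic anhydrase Car4 and the water channel Aqp1 rose and Guca2b fell. Aqp1 was at 205, 104, 151 and 166 CPM in the jejunum and at 389, 354, 247, 447 and 247 CPM in the ileum (1.10, SE 0.23, adjusted P = 0.0208). Guca2b, the partner hormone uroguanylin, went against Guca2a, at 1009, 893, 736 and 1263 CPM in the jejunum and at 741, 623, 477, 581 and 616 CPM in the ileum (-0.67, SE 0.18, adjusted P = 0.0387). Of 12 tight junction genes, Cgn alone was called (0.59), and of 9 goblet cell genes Muc2 alone, the main mucin (0.85, adjusted P = 0.0412). Of these calls Guca2a alone held without jejunum 2, where the adjusted P values were 0.114 for Car4, 0.0679 for Aqp1, 0.0948 for Guca2b, 0.0998 for Cgn and 0.124 for Muc2.

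The antimicrobial genes went both ways, with 2 of 11 tested members called higher and 2 lower, beside 4.4% and 2.44% of all tested genes. Nos2, the inducible nitric oxide synthase, was at 25.5, 70.9, 6.5 and 5.2 CPM in the jejunum and at 177, 1024, 390, 179 and 32.2 CPM in the ileum (3.62, SE 0.92, adjusted P = 0.0351), with ileum 5 below jejunum 2. Duox2 was also higher, and Reg1 and Reg4 were lower. Without jejunum 2 Duox2 alone stayed called, with adjusted P values of 0.0545 for Nos2, 0.0513 for Reg1 and 0.0867 for Reg4. Nos2 also lost its call when jejunum 3 or 4 or ileum 1, 2, 3 or 4 was left out in turn (adjusted P = 0.06 to 0.0813 by limma). The lectins Reg3b and Reg3g, which bind bacteria, were higher by 0.92 and 1.30 but did not pass (adjusted P = 0.143 and 0.0979).

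The 7 tested MHC class II genes, which present antigen, split the libraries within each segment. Cd74 was at 15.2, 15.7, 1923 and 95.7 CPM in jejunum 1 to 4 and at 42.7, 43.5, 2237, 2003 and 99.2 CPM in ileum 1 to 5. For Cd74 jejunum 3, ileum 3 and ileum 4 were high and the rest low. The groups overlapped for all 7 genes, and no member passed. By deviation from the segment mean jejunum 3 matched ileum 3 best (r = 0.54), and the main test took no account of such matches. The median was 1.07 with all libraries, 0.35 without jejunum 2 and 0.17 with jejunum 1 and 3 alone.

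Markers of other cells were low in both segments. The 4 hemoglobin genes and the 9 pancreatic acinar genes were listed in neither table. The summed CPM of markers of T cells and intraepithelial lymphocytes (11 of 12 listed) ran from 140 to 360 in the jejunum and from 87.7 to 286 in the ileum, and that of B and plasma cell markers (4 of 8 listed, without Cd79a, Cd79b and Ms4a1 among others) from 5.5 to 64.9 and from 7.5 to 36.1. Markers of macrophages and dendritic cells (6 of 9 listed) summed to 7 to 16.5 and 5.4 to 11.3 CPM. For fibroblasts and smooth muscle, 3 of 9 markers were listed, with sums of 2.0 to 7.8 and 2.1 to 3.5 CPM, and Acta2, Myh11 and Des were not. Their part in the differences was not tested. The 9 enterocyte markers summed to 16470 to 21600 CPM in the jejunum and 17640 to 25020 CPM in the ileum, with no DEG, and of 6 tested crypt and cell cycle genes Pcna alone fell (-0.80), a call lost without jejunum 2 (adjusted P = 0.115). No member was called among the tested genes of vitamin A and carotenoids (9, median -0.71), arginine, urea and glutamine (10, -0.01), Paneth cells (6, 0.12) and tuft cells (4, 0.23). Gm42418, a gene that overlaps a ribosomal RNA repeat, was at 3121, 8120, 4737 and 7814 CPM in the jejunum and at 24365, 26245, 18014, 9757 and 13219 CPM in the ileum (1.63, adjusted P = 0.0261, and 0.0555 without jejunum 2), and its part in the other differences was not tested.

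Some genes were listed in one table only. Every gene listed for the jejunum had 1 CPM or more in at least 3 libraries, and every gene listed for the ileum in at least 5, with the RYGB libraries counted in. A gene that is not listed has no value here. Of the 436 genes in the jejunum table alone, those with the highest sham mean were Tmprss15, Sult6b2, Akp3 and Otop3. Akp3, an intestinal alkaline phosphatase, was at 0.9, 121, 2.6 and 3.1 CPM, and Sult6b2, a sulfotransferase, at 5.9, 184, 1.4 and 6.3 CPM, so that jejunum 2 made up nearly all of each mean, and in the sham duodenum they reached 9307 and 2548 CPM. Ces1g, G0s2, Gm24601 and Marc1 followed, with no jejunum sham library over 26.8 CPM. Of the 192 genes in the ileum table alone, Fgf15 and Fabp6 had the highest sham means, followed by Igf2os, which overlaps Igf2 on the opposite strand, the magnesium channel Trpm6, the amino acid transporter Slc6a18, Nxpe3, Epb41l4a and Gsdmc2, none over 13.7 CPM in any sham ileum library.

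The same difference was then taken in the RYGB mice, 3 jejunum and 5 ileum libraries that share no sample with the sham comparison. There 314 of the tested genes (2.97%) were DEGs between ileum and jejunum, and 71 of them were DEGs in sham as well, which is 9.82% of the sham DEGs and 22.6% of the RYGB DEGs. Of the 465 genes higher in sham ileum, 389 (83.7%) were also higher by sign in RYGB, against 48.4% of all genes tested. Of the 258 genes lower, 202 (78.3%) were also lower, against 51.6% of all genes. The calls themselves recurred in the same direction for 42 and 23 genes, and 2 and 4 genes were called in the opposite direction.

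Plb1, Fam151a, Reg1 and Onecut2 were among the genes that kept the difference, with 8.16, 6.43, -5.02 and -4.43 in RYGB. For the peptide and amino acid genes 8 of 21 were higher in the ileum of RYGB mice, all 21 by sign, with a median of 0.77. The drug metabolism genes did not recur, with 3 of 25 higher, 1 lower and a median of 0.43. The lists of fat uptake (0.43), sugar use (0.24) and fatty acid oxidation (0.62) were among others with medians of the opposite sign to sham. The median of antimicrobial defence, 0.92 in sham, was -1.34 in RYGB. For cholesterol synthesis 15 of 22 genes were called lower and 0 higher in RYGB, with a median of -1.88 against -0.16 in sham.

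**Figure D5:**
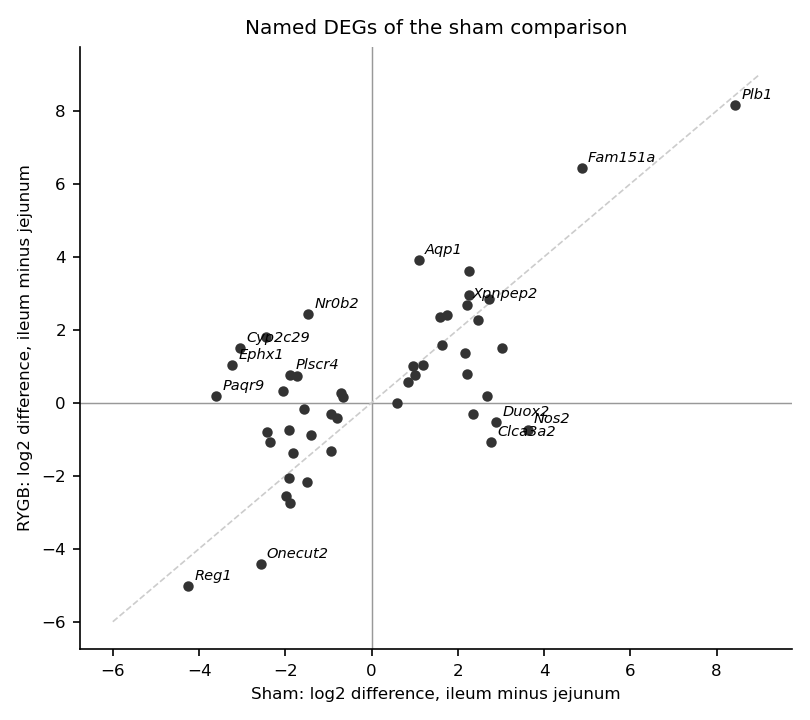
log2 difference, ileum minus jejunum, in sham mice (horizontal axis) and in RYGB mice (vertical axis) for 49 named DEGs of the sham comparison, with the dashed line marking equal values. Of the 49, 35 have the same sign in both, and Nr0b2, Ephx1 and Cyp2c29 are among those that do not.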

How the data were processed

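Messenger RNA of scraped villi was sequenced with a stranded kit. The authors deposited 1 table per tissue with a signal for each gene and library that the values show to be CPM rounded to 0.1 (with repeated gene lines counted once, columns summed to 997791 to 998669 in jejunum and ileum and to 925122 to 997785 in the duodenum). Read depth cannot be had from CPM, so no counting interval is given. The submitters' processing notes name HTSeq and GRCm38, and the aligner is not given in the sources used here. Repeated lines held equal values. Symbols and positions came from GENCODE for GRCm38.

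Libraries were grouped by their labels. The main test was limma (version 3.58.1, R 4.3.3) on log2(CPM + 1) with a mean-dependent prior, adjusted by the Benjamini-Hochberg method over all 10561 genes. Since each library was divided by its own total, libraries of both tables were fitted together. The fit was tested on simulated data. Nothing says that libraries came from separate animals beyond their labels, so P values measure the spread between these libraries. The comparison and the gene lists were chosen with earlier results of these data known. Genes were named by rule: the 12 largest rises and 12 largest falls among DEGs without overlap, all members of the bile acid, vitamin B12, fatty acid binding protein and transcription factor lists, up to 3 DEGs per direction of each other list with members on which a list turns, the 8 highest genes of a single table, and the 5 most abundant of each segment. Naaladl1, Enpep, the amino acid carriers, Cyp4a10, Cyp3a13, Reg3g and Cd74 were named after their values were seen. A few members of the lists are not reported here by name. Alternatives were another pseudocount, other minimum levels, 2 scalings, a replicate block, each ileum lane alone, each library left out, and, chosen after seeing the data, jejunum 1 and 3 alone and a test over 17 sham and RYGB libraries of whether the segment difference differed with surgery.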

Additional observations from a re-analysis of the deposited data

Results flagged for a closer look

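A test over 17 libraries asked whether the difference between ileum and jejunum itself differed between RYGB and sham mice. It did at an adjusted P value under 0.05 for 129 of all tested genes by limma, 29 of them DEGs of the sham comparison, and for 9 of the genes followed here. The difference in RYGB minus that in sham was 4.53 for Cubn (adjusted P = 0.00408), 3.9 for Nr0b2 (0.00823), 2.66 for Plscr4 (0.00575), 2.38 for Ccl24 (0.0218), 2.81 for Aqp1 (0.0442) and 4.25 for Acot1 (0.0352), all on the log2 scale. It was -3.84 for Clca3a2 (0.0442), -2.68 for Mgat4c (0.0442) and -2.73 for Reg3b (0.0359). Cubn differed by 5.54 between ileum and jejunum in RYGB and by 1.02 in sham, and Nr0b2 by 2.44 and -1.46. Acot1 was highest in jejunum 2 among the sham libraries, and the part of that library in this value was not tested. The lanes of the segments differed between sham and RYGB, as given above, and the part of lane in these values was not tested either.

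Single libraries lay far from the others of their segment in 5 of 177 groups tested, where chance gives about 1 in 20, or 8.8. The gap as a share of the group's range was 0.839 for Mgat4c and 0.843 for Kcnj13, both highest in jejunum 3 (15.4 CPM against 6.6 to 7.6, and 3.8 CPM against 0.8 to 1.1). It was 0.895 for Slc19a3 in jejunum 2 (40.5 CPM against 8.6 to 10.2) and 0.911 for Cdx2 in jejunum 3, which was lowest (115 CPM against 148 to 151). In ileum 5 it was 0.764 for Ap1s3 (10.2 CPM against 2.9 to 4.0).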

How the results depend on the processing

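Precision was limited by 4 and 5 libraries per segment. The 723 DEGs became 765 with a pseudocount of 0.1, 568 at a mean of 10 CPM or more, 653 with the replicate block and 750 with median-ratio scaling, under which 390 rather than 258 genes were lower. Leaving out 1 library gave 58 to 927 DEGs, 48 to 575 higher and 10 to 352 lower, with 58 without jejunum 2, 431, 251 and 145 without ileum 1, 2 and 3, and, among those lower, 121 without ileum 4. The ileum libraries of lane 2 alone gave 212 DEGs (152 higher, 60 lower), those of lane 3 alone 0 by limma (1566 genes at an unadjusted P under 0.05), and jejunum 1 and 3 alone 107 (36 and 71). Of 54 named DEGs none reversed under any alternative that tested it, 13 stayed called without jejunum 2, 21 without ileum 3 and 45 with the replicate block, which lost Anpep, Slc7a8, Slc43a2, Slc36a1, Guca2b, Ghrl, Cgn, Pcna and Gm42418 and called Reg3b, Reg3g, Prdm1 and Cyp4a10. Same-numbered libraries deviated together in 3 of 4 numbers (r = 0.427, 0.347, 0.54 and -0.201), so the numbers were not taken as pairs. Jejunum 4 matched ileum 5 best (r = 0.344), so each jejunum library had a different ileum library as its best match. Libraries may therefore share mice, which the main test ignored. The replicate block paired jejunum 4 with ileum 4 and left out ileum 5, and a block by best match was not tested.

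Genes that were not DEGs changed sign near 0. Nr1h4 was 0.00 with a pseudocount of 0.1, 0.007 in lane 3, 0.35 with jejunum 1 and 3 alone and -0.12 to 0.18 with a library left out. Fabp2 was -0.007 with median-ratio scaling, -0.28 in lane 3 and -0.26 to 0.17 with a library left out. Gata4 was 0.004 in lane 2, 0.082 with jejunum 1 and 3 alone and -0.072 to 0.12 with a library left out. Ppara was -0.024 with median-ratio scaling, -0.12 with the replicate block, -0.056 in lane 2, -0.20 with jejunum 1 and 3 alone and -0.19 to 0.17 with a library left out. Klf4 was -0.054 with jejunum 1 and 3 alone and mt-Co1 0.088 in lane 3. With a library left out Cdx2 was -0.029 to 0.14 and Apoa1 -0.39 to 0.048.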
